A study of Saccharomyces cerevisiae with 3 samples.

Results

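Positions 1 to 350 are the promoter-proximal part of ETS1, the 5′ external transcribed spacer of the 35S rDNA gene, counted from the first nucleotide of the transcript. These 350 positions were taken by their place in the deposited table and not by any measured value, out of 6858 positions of the 35S gene. They correspond to chrXII:467220-467569 of assembly R64, on the minus strand, within *RDN37-2* (YNCL0020C). Pol I occupancy was measured by NET-seq, which isolates RNA still bound to the polymerase and sequences its 3′ end. The samples were 3 replicates of an *hmo1Δ* strain (*hmo1Δ*::*URA4*), each from its own culture grown at 30 °C. The *hmo1Δ* strain and WT yeast both carry (His)7-(HA)3-*RPA135*::*TRP1*, a tagged Pol I subunit used for the purification. Single WT replicates come from another series and were left out. WT is represented by the authors' median column, printed without n or SD, and no test between the strains was made. The effect of the strain and that of the library series cannot be told apart.

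Pol I transcribes the 35S precursor that is cleaved into the 18S, 5.8S and 25S rRNAs, and ETS1 is the leader that precedes 18S. ETS1 RNA is bound cotranscriptionally by the U3 snoRNP and other processing factors, and it is removed and degraded, so it is absent from mature ribosomes. Hmo1 is an HMG-box protein that binds actively transcribed rDNA. A high NET-seq value marks a position at which more nascent RNA ends were recovered, and the method has no time variable.

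The RNA of the first 50 positions, at chrXII:467520-467569, is shown first because its beginning carried almost no signal. Capitals mark positions 1 to 10.
Positions 1 to 50: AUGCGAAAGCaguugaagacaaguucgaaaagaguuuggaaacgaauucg

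The stretches around 6 of the highest WT positions follow, because they hold the positions with the largest differences from WT in RPM, upward and downward. In each pair the capital marks the highest position of the stretch, in the authors' WT median on the first line and in the *hmo1Δ* median on the second. Where both strains had the same highest position, 1 line is given. The stretches lie on the minus strand at chrXII:467453-467483, chrXII:467392-467422, chrXII:467360-467390, chrXII:467323-467353, chrXII:467295-467325 and chrXII:467220-467249, in this order.
Positions 87 to 117, WT, capital at 102: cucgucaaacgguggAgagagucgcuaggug
Positions 87 to 117, *hmo1Δ*, capital at 106: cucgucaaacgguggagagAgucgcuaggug
Positions 148 to 178, WT, capital at 163: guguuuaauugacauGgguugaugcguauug
Positions 148 to 178, *hmo1Δ*, capital at 166: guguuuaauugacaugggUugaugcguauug
Positions 180 to 210, WT, capital at 195: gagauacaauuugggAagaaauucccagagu
Positions 180 to 210, *hmo1Δ*, capital at 183: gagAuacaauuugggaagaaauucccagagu
Positions 217 to 247, both strains, capital at 232: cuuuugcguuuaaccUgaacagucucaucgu
Positions 245 to 275, WT, capital at 260: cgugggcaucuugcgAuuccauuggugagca
Positions 245 to 275, *hmo1Δ*, capital at 252: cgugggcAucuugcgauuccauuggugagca
Positions 321 to 350, WT, capital at 336: gaauucaaacuugggGgaaugccuuguuga
Positions 321 to 350, *hmo1Δ*, capital at 339: gaauucaaacuugggggaAugccuuguuga

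Occupancy is given in normalized counts (RPM), which the authors scaled to a total of 1000000 up to the T1 terminator. In the *hmo1Δ* columns low values were whole multiples of what 1 read is worth. The stretch thereby held 85038, 50236 and 60179 reads in replicates 1, 2 and 3. Its median position held 134, 79.5 and 80 reads, which gives counting errors of 8.64%, 11.2% and 11.2%. These errors cover counting only. The coefficient of variation between replicates had a median of 18.2% over these positions and of 10.7% over the whole gene. The order of positions was nevertheless close among replicates, with a mean Spearman coefficient of 0.978 ± 0.0021 (SD over 3 pairs, 350 positions). Since neighbouring positions depend on each other, the coefficient carries no *p*-value.

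Scaled to the gene, Pol I occupancy of the stretch as a whole differed from WT by less than the spread between replicates. Scaled to the spacers, it was below WT in every replicate. It summed to 22981, 25317 and 21414 RPM in replicates 1, 2 and 3, against 22790 RPM in the authors' WT median. Replicates 1 and 2 were above WT and replicate 3 was below it. The mean log2 ratio was 0.02 ± 0.12 (SD, n = 3). With all columns scaled to the total of the 4 spacers, in place of the total of the gene, the same log2 ratio was -0.52 ± 0.09. The stretch held 2.32% ± 0.196 (SD, n = 3) of the occupancy of the gene in *hmo1Δ* and 2.28% in WT, on 5.10% of the positions. Its share of the spacers was 23.4% ± 1.45 (SD, n = 3) in *hmo1Δ* and 33.4% in WT.

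Few RNA 3′ ends were recovered at the first 10 positions. An RNA that ends there is at most 10 nucleotides long. The authors selected library DNA by size, and whether RNAs this short can be recovered was not tested. Positions 1 to 10, the first 5 of which are annotated in the table as 35S core promoter, held 3 reads in replicate 1 and none in replicates 2 and 3, where a count of 0 allows up to 1.51 and 1.07 RPM at a position. The WT median summed to 0.951 RPM over these 10 positions. At position 12 the replicates had 15.1, 34.8 and 13.2 RPM, on both sides of the 25.9 RPM of WT. The first local maximum of WT was at position 19, at 182 RPM, where the replicates had 91.9, 126 and 90.4 RPM, all below WT. The next, at position 33, had 298, 314 and 270 RPM in *hmo1Δ* against 109 RPM in WT, all above WT.

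**Figure D1:**
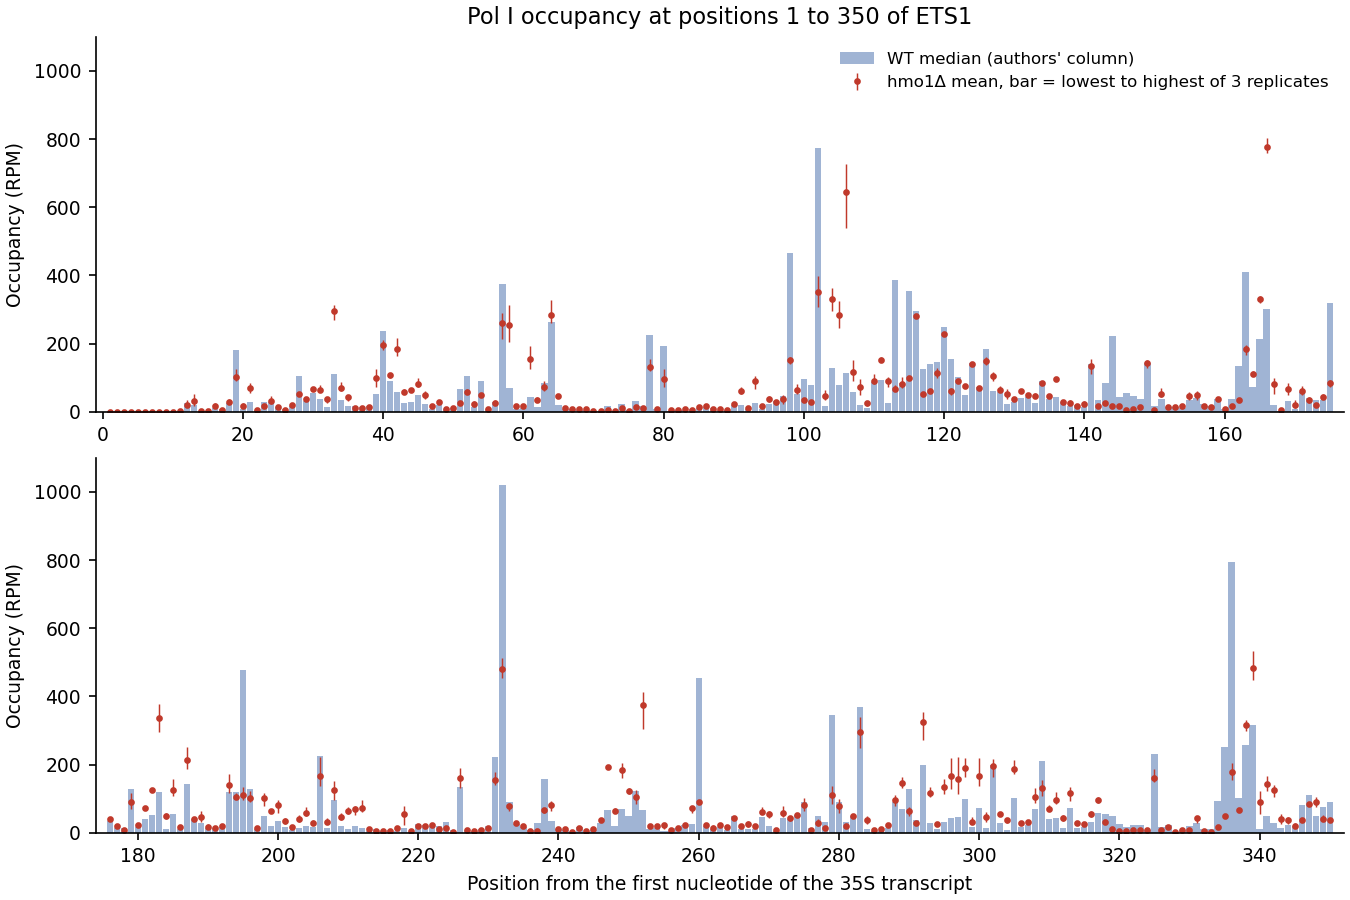
Pol I occupancy (RPM) at each of positions 1 to 350, with positions 1 to 175 above and 176 to 350 below. Blue bars are the authors' WT median, red points the mean of 3 *hmo1Δ* replicates with a bar from the lowest to the highest. The tallest WT bar is at position 232 (1019 RPM) and the highest *hmo1Δ* point at position 166 (777 RPM), and positions 1 to 10 are close to 0 in both strains.

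Along the stretch, in RPM scaled to the gene, some windows had more and others less occupancy than WT. All 3 replicates were above the WT median in 3 of 7 windows of 50 positions, below it in 2, and on both sides in the other 2. Scaled to the 4 spacers, the ratio of each window is lower by the same amount within a replicate. No window of 50 positions then keeps all 3 replicates above WT. The values below are scaled to the gene. Positions 1 to 50 had 37.4, 45.9 and 36.2 RPM per position against 29.7 RPM in WT. Every replicate was higher, and the log2 ratio averaged 0.42 ± 0.19 (SD, n = 3). Positions 51 to 100 were lower than WT in every replicate, at 45.1, 49.7 and 41.1 RPM against 52.2 RPM, a log2 ratio of -0.21 ± 0.14. The window with the most occupancy in both strains was positions 101 to 150, at 98.6 ± 5.53 RPM per position (SD, n = 3) against 106 RPM, a log2 ratio of -0.11 ± 0.08. Positions 151 to 200 had a log2 ratio of 0.17 ± 0.12 and positions 251 to 300 one of 0.24 ± 0.19, with all replicates above WT in both windows. Replicate 2 gave the highest ratio in every window but 101 to 150. Without it, the log2 ratio was 0.10 at positions 151 to 200 and 0.13 at positions 251 to 300. Without replicate 3, that of positions 101 to 150 was -0.07.
In windows of 25 positions the course was steeper. The ratio was 0.57 ± 0.14 on the log2 scale (SD, n = 3) at positions 26 to 50 and -0.59 ± 0.17 at positions 76 to 100, again with all replicates on one side. At positions 1 to 25 it was -0.13 ± 0.38, with replicates 1 and 3 below WT and replicate 2 above it. The position at which the running sum reached the middle of the stretch was 177, 183 and 179 in replicates 1, 2 and 3 and 176 in WT.

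**Figure D2:**
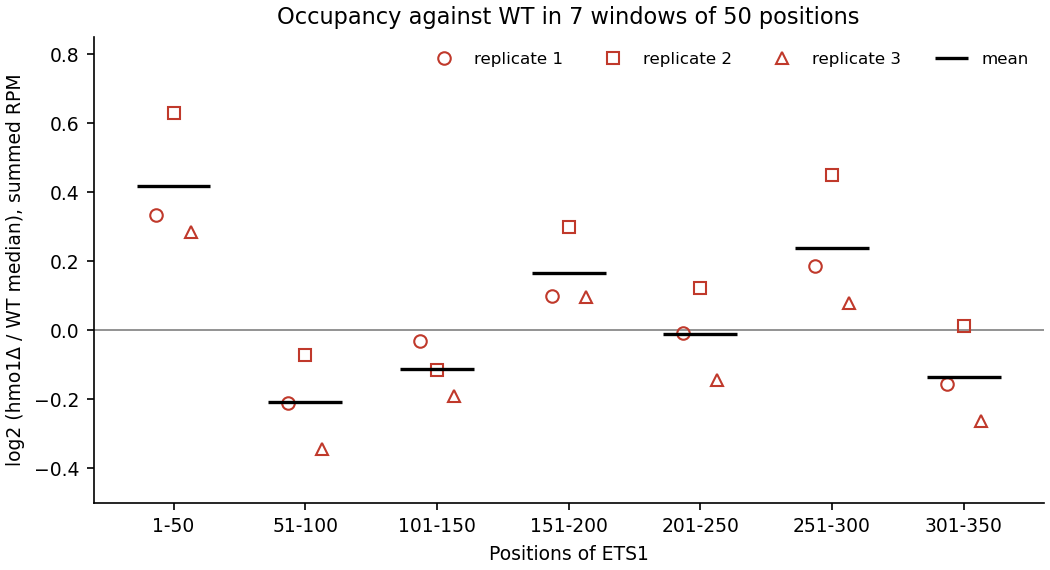
The log2 ratio of summed occupancy, *hmo1Δ* over the authors' WT median, in 7 windows of 50 positions of ETS1, in RPM scaled to the gene. Symbols are the 3 *hmo1Δ* replicates and black lines their means. The mean is highest at positions 1 to 50 (0.42) and lowest at positions 51 to 100 (-0.21).

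In RPM scaled to the gene, the strains differed far more position by position than in sum. All 3 *hmo1Δ* replicates lay above the WT median at 165 of the 350 positions (47.1%), where the share over the whole gene was 44.2%. All 3 lay below it at 112 positions (32.0%), against 37.2% over the whole gene. At the remaining 73 positions the replicates fell on both sides of WT or were listed at the same value. Both shares were close to those of the gene. A difference of at least 2-fold in all replicates, after adding 1 RPM to each value, was found upward at 46 positions (13.1%), against 11.4% over the gene. Downward it was found at 33 positions (9.43%), against 1.53% over the gene. Positions 351 to 700, the rest of ETS1, gave 55 positions (15.7%) upward and 32 (9.14%) downward, a downward share close to that of positions 1 to 350. ITS1, the next spacer, gave 159 of 361 positions (44.0%) upward and 8 (2.22%) downward. Measured against the authors' own WT interval, their mean plus and minus 2 standard errors, all replicates were above at 130 positions (37.1%) and below at 86 (24.6%), where the whole gene gave 35.1% and 26.4%. Most positions of the gene lie in 18S (1800), 5.8S (158) and 25S (3396), where mature rRNA can contaminate the signal. The shares over the gene are thus not shares of nascent RNA alone. The median position in WT had 94.0 RPM over the gene and 25.9 RPM in the stretch.

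**Figure D3:**
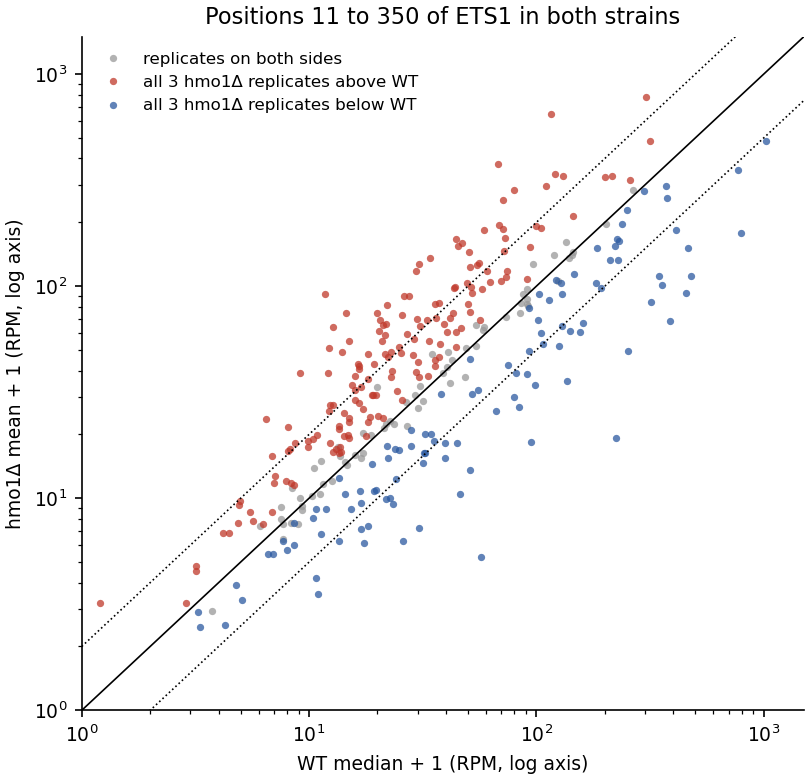
Each of positions 11 to 350 by its occupancy in the authors' WT median (x) and the mean of 3 *hmo1Δ* replicates (y), both in RPM plus 1 on log axes. Colour shows on which side of WT the replicates lay, the solid line marks equality and dotted lines a 2-fold difference. Points lie on both sides of the line, except that the WT positions of highest occupancy, from position 163 (410 RPM) to position 232 (1019 RPM), all lie below it. These were picked by their WT value. Picked by the *hmo1Δ* median instead, the 8 highest positions lie above the line, except for 102 and 232.

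The highest positions in *hmo1Δ* and in WT were in part different ones. Of the 20 highest positions of each median, 10 were shared, whereas any pair of *hmo1Δ* replicates had 18 or 19 in common. Of the 10 highest, 2 were shared, positions 102 and 232, and pairs of replicates shared 8. Occupancy was also less concentrated in *hmo1Δ*. The 20 highest positions of each replicate held 30.9% ± 1.25 (SD, n = 3) of its occupancy in the stretch, against 37.2% for the 20 highest of WT. The 20 highest WT positions held 21.1% ± 1.65 (SD, n = 3) of the *hmo1Δ* occupancy. The Spearman coefficient of single replicates with the WT median was 0.825 ± 0.023 (SD, n = 3, 350 positions), below the coefficients between replicates. It was 0.765 ± 0.026 at positions 351 to 700 and 0.710 ± 0.027 in ITS1.

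Around position 102, where the RNA reads GGAGAGA, neighbouring positions differed from WT in opposite directions. Position 106 had 728, 667 and 539 RPM in replicates 1, 2 and 3, against 115 RPM in the WT median. Every replicate was well above WT, a fold of 5.61 and a log2 ratio of 2.47 ± 0.22 (SD, n = 3). Positions 104 and 105, directly before it, were also above WT in every replicate, at 330 ± 33.8 RPM against 129 RPM and at 283 ± 39.5 RPM against 78.5 RPM (SD, n = 3). The authors' coefficient of variation over WT replicates was 18.5%, 30.8% and 31.8% at positions 104, 105 and 106. Position 102 had 309, 348 and 397 RPM against 772 RPM in WT, so all replicates were below WT there. Position 98 had 141, 160 and 153 RPM against 465 RPM, again with all replicates below. Position 113, at the other flank, had 79.7, 63.0 and 60.1 RPM against 387 RPM, 5.73-fold lower, at a position where the authors' coefficient of variation over WT replicates was 29.0%. Summed over 5 positions on either side, the neighbourhood of position 102 gave 2088 ± 147 RPM (SD, n = 3) against 1913 RPM, which is slightly above WT although the position itself was lower. That of position 106 gave a log2 ratio of 0.55 ± 0.13 and that of position 98 one of -0.87 ± 0.03.

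A similar arrangement was seen at positions 163 to 166, where the RNA reads GGGU. The highest *hmo1Δ* position of the stretch was 166, with 760, 804 and 767 RPM against 302 RPM in WT, a log2 ratio of 1.36 ± 0.04 (SD, n = 3). The authors' coefficient of variation for WT at this position was 3.47%, so both strains were measured tightly. Position 163, the WT maximum of this segment, had 166, 197 and 187 RPM against 410 RPM. The summed occupancy around position 163 was above WT, at 1600 ± 67.5 RPM (SD, n = 3) against 1259 RPM, so the segment as a whole held more occupancy in *hmo1Δ* while its WT maximum held less.

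Near the end of the stretch, position 336, in a run of G residues, had 156, 170 and 205 RPM against 795 RPM in WT, 4.49-fold lower. Position 334 was at 19.2, 19.2 and 13.9 RPM against 94.0 RPM. Just downstream the replicates were above WT. Position 339 had 468, 534 and 447 RPM against 315 RPM, and position 340 had 94.3, 123 and 55.5 RPM against 10.8 RPM, the largest log2 difference upward among the positions at 50 RPM or more, at 2.89 ± 0.58 (SD, n = 3). The replicates differed at position 340 by a factor of more than 2, with all of them above WT. The 11 positions around 339 summed to 1545 ± 121 RPM (SD, n = 3) against 1942 RPM in WT, and those around 340 to 1549 ± 126 RPM against 1868 RPM, both lower than WT although the positions themselves were higher. The segment around position 336 likewise summed to less than in WT, with a log2 ratio of -0.47 ± 0.09.

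At positions 183, 195, 232, 252 and 260 the sum of the 11 positions around each differed from WT in the same direction as the position itself. That sum includes the position. With the position taken out, the rest still went the same way around 183, 232 and 252. Around 195 and 260 the rest was above WT in every replicate, opposite to the position. Position 232 was the highest of the stretch in WT at 1019 RPM and had 514, 476 and 455 RPM in *hmo1Δ*, 2.12-fold lower with all replicates below. By the median of the replicates it was nevertheless the third highest position in *hmo1Δ*. The 11 positions around it had a log2 ratio of -0.86 ± 0.12 (SD, n = 3). Position 252 had 414, 409 and 303 RPM against 66.5 RPM in WT, and its neighbourhood summed to 1128 ± 84.7 RPM (SD, n = 3) against 450 RPM, a log2 ratio of 1.32 ± 0.11. A total of 8 positions downstream, position 260 had 94.0, 85.2 and 95.4 RPM against 453 RPM, with a neighbourhood log2 ratio of -0.85 ± 0.14. Position 183 had 339, 376 and 297 RPM against 120 RPM, and position 195 had 102, 96.3 and 134 RPM against 477 RPM. The neighbourhoods had log2 ratios of 0.79 ± 0.15 around 183 and -0.37 ± 0.13 around 195.

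The other positions named by the same rule were of lower occupancy or differed less. The largest log2 differences downward were at position 144, with 20.8, 18.6 and 14.9 RPM against 222 RPM, and position 146, with 6.22, 3.02 and 3.56 RPM against 56.1 RPM. These are 12.2-fold and 13.2-fold lower. All replicates were below WT at both positions. Position 212 had 63.8, 96.3 and 62.3 RPM against 13.6 RPM, a log2 ratio of 2.33 ± 0.35 (SD, n = 3). Position 292 had 273, 354 and 351 RPM against 198 RPM, with the 11 positions around it at a log2 ratio of 0.87 ± 0.21. Among positions 11 to 350 the lowest *hmo1Δ* mean was 1.48 RPM, at position 73, and the lowest WT median was 0.203 RPM, at position 11.

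**Figure D4:**
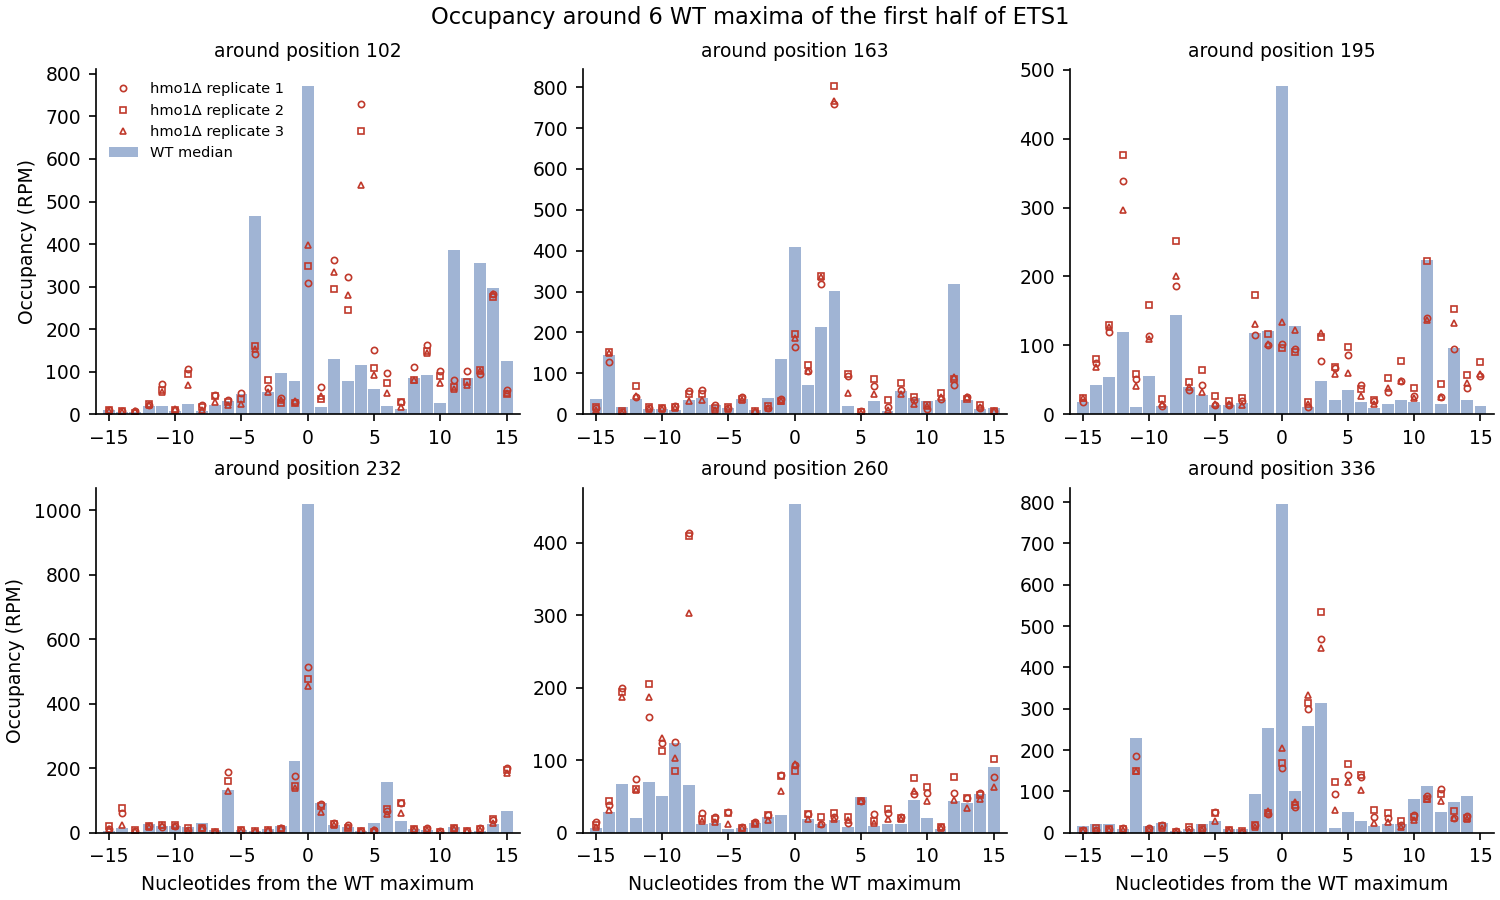
Occupancy (RPM) within 15 nucleotides of 6 high WT positions, with distance from the WT position on the x axis. Blue bars are the authors' WT median and red symbols the 3 *hmo1Δ* replicates. Around positions 102, 163 and 336 the highest *hmo1Δ* median lies 4, 3 and 3 nucleotides downstream of the WT maximum, around 195 and 260 it lies 12 and 8 nucleotides upstream, and around 232 it coincides with it.

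To see how often maxima differed in place, local maxima were defined, after the values had been seen, as positions of at least 100 RPM that were the highest among 11 positions. The WT median had 26 such maxima at positions 1 to 350. All 3 *hmo1Δ* replicates had their highest value at the same position in 10 of them, downstream in 5 and upstream in 3. In 8 the replicates differed, mostly with at least 1 of them at the WT position. Starting from the 22 maxima of the *hmo1Δ* median, the WT median was highest at the same position in 12, upstream in 6 and downstream in 4. This second count uses 1 WT column and needs no agreement among replicates, so the 2 counts are not alike. At positions 351 to 700, 21 WT maxima gave 9 at the same position, 5 downstream and 5 upstream. Over 320 positions, the Spearman coefficient of *hmo1Δ* occupancy with the WT value 1 position upstream was 0.364 ± 0.0092 (SD, n = 3), and with the value 1 position downstream 0.237 ± 0.018. Between *hmo1Δ* replicates the corresponding coefficients were 0.435 and 0.438. At positions 351 to 700 they were 0.420 and 0.375 with WT, so the direction was the same and the gap was smaller. These coefficients share the same libraries and overlapping neighbours, and are given as a description only.

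Occupancy followed the sequence in both strains. The base is taken here as the table lists it for each position, and whether the last nucleotide of the RNA is that base or its neighbour was not determined. Positions 11 to 350 hold 89 A, 53 C, 91 G and 107 U. A positions had the highest mean occupancy, at 103 ± 7.82 RPM (SD, n = 3) in *hmo1Δ* and 103 RPM in WT. Positions that follow a G had 116 ± 7.39 RPM and 119 RPM, and those that follow a U had 43.0 ± 3.53 RPM and 47.4 RPM. Of the 20 highest *hmo1Δ* positions, 11 were A and 13 followed a G, and of the 20 highest WT positions, 9 were A and 14 followed a G. Such G-A steps occur at positions 102, 104, 106, 183, 195, 260 and 292 described above.

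The difference between strains varied with the base at the position and with its neighbours. At U, the median log2 ratio was 0.60, 0.73 and 0.28 in replicates 1, 2 and 3, and all 3 replicates lay above WT at 67 of 107 positions (62.6%) and below it at 22 (20.6%). Over all bases, the shares above and below were 47.1% and 32.0% at positions 1 to 350, and 44.2% and 37.2% over the gene. Shares by base were not computed over the gene. At A, the median log2 ratio was 0.01 ± 0.09 (SD, n = 3), with 38 of 89 positions above and 38 below. At G it was -0.02 ± 0.18, with 33 of 91 positions above and 34 below. At C it was 0.23 ± 0.12, with 27 of 53 positions above and 14 below. U positions held 27.6% ± 1.23 (SD, n = 3) of the occupancy in *hmo1Δ* and 21.0% in WT, whereas G positions held 21.8% ± 0.718 and 28.1%. The median log2 ratio at U exceeded that of the other bases by 0.48 ± 0.12 (SD, n = 3). U positions were low in WT, with a median of 16.3 RPM against 55.0 RPM at A. Among the 170 positions with 10 to 50 RPM in WT, of which 63 are U, the difference was 0.44 ± 0.08. At positions 351 to 700 the median log2 ratio at U was 0.71 ± 0.22 and at A -0.07 ± 0.03, and in ITS1 it was 1.23 ± 0.11 and 0.84 ± 0.05, so the order of these bases was the same there. All 3 replicates lay above WT at 71.8% of U positions in 351 to 700, where all bases gave 48.9%. In ITS1 they did so at 86.8% of U positions, where all bases gave 80.1%. Sorted by the base that follows, the 53 positions before a C had a median log2 ratio of 0.53 ± 0.20 (SD, n = 3), with 32 above and 9 below, about as large as that at U. Sorted by the base that precedes, the median log2 ratio was 0.36 ± 0.16 after A, 0.33 ± 0.15 after C, and 0.12 after both G and U. Since the listed base may not be the last nucleotide of the RNA, these values do not single out the base at the 3′ end.

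G content upstream of the 3′ end was also related to the difference, weakly. Across 340 positions, the Spearman coefficient of the log2 ratio with the number of G among the 10 nucleotides ending at the position was 0.199 ± 0.021 (SD, n = 3), with 0.175, 0.209 and 0.214 in the single replicates. Overlapping windows share bases. Only 5 positions ended a window with 6 G, namely 105 to 107 and 341 and 342, and all of their replicates were above WT. Their median log2 ratio was 1.85 ± 0.16 (SD, n = 3). Position 107 had 151, 109 and 91.5 RPM against 59.4 RPM, position 341 had 141, 165 and 124 RPM against 49.4 RPM, and position 342 had 134, 139 and 104 RPM against 29.4 RPM. They come from only 2 places in the sequence. Without them the coefficient of this stretch was 0.168 ± 0.024. The 66 positions with no more than 1 G in the window had a median log2 ratio of -0.10 ± 0.15, and the 89 with 4 or 5 G one of 0.31 ± 0.16.

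The promoter-proximal 350 positions of ETS1 were compared with the 350 positions that follow them. They held 52.0%, 51.8% and 51.7% of ETS1 occupancy in replicates 1, 2 and 3 and 53.9% in WT. Mean occupancy per position was 66.4 ± 5.61 RPM (SD, n = 3) at positions 1 to 350 and 61.7 ± 5.18 RPM at positions 351 to 700, and it was higher at positions 1 to 350 in 3 of 3 replicates. The log2 ratio between them was 0.11 ± 0.01, and an exact paired permutation test over the replicates gave *p* = 0.25, two-sided, the smallest value that 3 pairs allow. Without the 20 highest positions of ETS1 by either median, this log2 ratio was -0.0058 ± 0.024. The log2 ratio to WT was 0.02 ± 0.12 at positions 1 to 350 and 0.14 ± 0.12 at positions 351 to 700. It was lower at positions 1 to 350 in 3 of 3 replicates, with a difference of -0.12 ± 0.01 (exact paired permutation test, *p* = 0.25, two-sided). This difference was -0.03 ± 0.02 without the same 20 highest positions of each median, and -0.05 ± 0.05 as the difference of the median log2 ratios per position (exact paired permutation test, *p* = 0.5, two-sided). The same WT column stands in every replicate, so its error is in none of the spreads or tests of the ratio to WT. These tests therefore do not compare the strains. ITS1 had a log2 ratio of 1.08 ± 0.02, above that of positions 1 to 350 in every replicate.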

How the data were processed

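The members and lists were chosen with earlier results of these data known. Before alignment the authors removed duplicate reads by their UMI (fqtrim) and trimmed adaptors (cutadapt, version 3.4). STAR 2.7.1a then placed reads on R64, and coverage per position came from bedtools 2.28.0. The assembly holds *RDN37-1* and *RDN37-2*, and how reads of the rDNA copies were assigned is not given in the sources used here. The authors deposited RPM per position for each *hmo1Δ* replicate, scaled to a total of 1000000 up to T1, and WT values pooled over replicates. Single WT replicates fill 3 further columns, which come from another series and were not used. The deposited WT median is in RPM, as are the authors' WT mean and the limits of their interval, and a further column gives their WT coefficient of variation. The authors' columns with the change, ratio and p-value per position were not used.

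What 1 read is worth was taken as the median step between low values. At least 99.9% of positions then came out whole, within 0.01 read. Ratios used each replicate over the WT median, with 1 RPM added for single positions. A limit for a count of 0 is 3 reads. No count test was made, since the columns used hold replicates of 1 group.

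Named positions were the 8 highest of each strain, the 6 largest differences in RPM each way, the 4 largest log2 ratios each way among positions of at least 50 RPM, and, given by level alone, the lowest of each strain after position 10, with differences counted only where all replicates lay on one side. Alternatives were the WT mean, other scalings, edges, pseudocounts, thresholds and windows, and each replicate left out. Python 3.11.15, numpy 2.4.6, pandas 2.3.3, scipy 1.17.1 and matplotlib 3.10.9 were used, and the calculations were tested on simulated profiles.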

Additional observations from a re-analysis of the deposited data

How the results depend on the processing

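No paired analysis was possible because, between the strains, only the replicates of *hmo1Δ* were used. The paired test in the report compares stretches within each replicate. Scaled to the 4 spacers, the log2 ratio of summed occupancy was -0.52, and as the median over positions it was 0.16. The log2 ratio of mean occupancy between positions 1 to 350 and the rest of ETS1 was -0.0058 without the 20 highest positions of ETS1, where the cause was not tested. The share of the stretch was 23.4% of the spacers, and its share of ETS1 was 49.2% without the 20 highest positions and 50.4% or 53.1% with the boundary at 340 or 360. The middle of the running sum was at 175 without the first and last 10 positions. At thresholds of 1.5-fold and 3-fold, 89 and 11 positions were higher, and 52 and 14 lower. Scaled to ETS1, the 2-fold counts were 41 higher and 44 lower, against 46 and 33 scaled to the gene. Shares over the gene were not computed for these other settings, so these counts cannot be set against the gene. The top 10 and top 35 positions shared 2 and 19, and 10 windows of 25 positions and 3 of 70 had all replicates on one side. With at least 10 RPM in WT, the Spearman coefficient was 0.970 between replicates and 0.719 with WT, and 0.720 with WT after smoothing over 25 positions. Leaving out each replicate gave 0.976 to 0.980 between replicates. The coefficient with G content was 0.157 for 20 nucleotides, and 0.248 and 0.137 with the window moved by -1 and 1 nucleotide. The difference between U and other positions was 0.33 with a pseudocount of 10 RPM. The WT mean, the authors' interval, the comparison of U positions and the alternatives for named positions were chosen after seeing the data. Depth limits the lowest positions most, where 3 reads are worth 0.811, 1.51 and 1.07 RPM in replicates 1, 2 and 3.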
